A study of Mus musculus with 8 samples.

Results

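The signaling lymphocytic activation molecule (SLAM) receptors are a family of immunoglobulin-like surface proteins whose genes lie together on mouse chromosome 1, inside the lupus susceptibility region Sle1. All 8 family members named by the rule for this gene group were in the count table, which are Ly9, Slamf7, Cd48, Slamf1, Cd84, Slamf6, Slamf9 and Slamf8, out of 13786 protein-coding genes in all. The members were chosen by gene family and position, not by their values, although earlier results of these data were known. Their expression was compared between CD11c-positive splenocytes of 4 C57BL/6 control mice and 4 B6.SLE123 mice, all female and 7 weeks old. B6.SLE123 animals are C57BL/6 mice that carry the Sle1, Sle2 and Sle3 intervals of a lupus-prone strain, and at this age they have no overt disease. Every B6.SLE123 mouse carried all 3 intervals, so the effect of Sle1 cannot be told apart from that of Sle2 or Sle3. CD11c is the product of Itgax and marks dendritic cells, but some macrophages and other leukocytes carry it too. RNA was sequenced in bulk from each mouse, in which fewer cells of a type and less RNA per cell cannot be told apart.

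Most SLAM receptors bind another copy of themselves on a neighboring cell, so that cells of the immune system touch through matching pairs. Cd48 is the exception, a lipid-anchored protein that is the ligand of the related receptor Cd244a. Inside the cell, the tails of Slamf1, Ly9, Cd84 and Slamf6 are bound by the adaptor SAP, encoded by Sh2d1a, and the tail of Slamf7 by the adaptor EAT-2, encoded by Sh2d1b1, whereas Slamf8 and Slamf9 have short tails without the usual docking site. The receptors shape T cell and B cell contacts, natural killer cell responses and the activity of phagocytes. The cluster is highly variable among inbred mouse strains, and C57BL/6 mice carry a version of it that differs from that of most others.

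Depth was 25761789 to 32931045 counts per C57BL/6 mouse and 25563070 to 37367094 per B6.SLE123 mouse. A gene was counted as passing at an edgeR adjusted p below 0.05, which 53.4% of all 13786 genes reached, 26.7% as higher and 26.6% as lower in the B6.SLE123 strain. The label of the cells was checked with 7 dendritic cell genes, all of which were present and higher in B6.SLE123 mice, with a summed level of 23300 to 27000 CPM (counts scaled to the same library total in every mouse) in C57BL/6 mice and of 28800 to 30300 CPM in B6.SLE123 mice. Itgax itself was at 1330 CPM against 1540 CPM on average. Markers of other cells moved as well. All 10 red pulp macrophage genes were lower in the B6.SLE123 strain, with a summed level of 12100 to 15300 CPM against 1700 to 3390 CPM, as were all 3 marginal zone macrophage genes (167 to 202 CPM against 34.5 to 62.5 CPM). Of the other lists, 7 of 8 erythroid genes were lower (79.1 to 265 CPM against 8.67 to 39.0 CPM). Of 9 genes of type 1 dendritic cells, 7 were higher and 1, Batf3, was lower (1770 to 2210 CPM against 2430 to 3860 CPM). Of 9 genes of type 2 dendritic cells, 3 were lower and 1 was higher (2540 to 2740 CPM against 1670 to 1940 CPM). Most of the type 2 sum was Sirpa, at 1780 against 950 CPM on average. B cell genes fell in 7 of 10 cases and rose in 1 (767 to 865 CPM against 664 to 787 CPM). Neutrophil genes rose in 3 of 8 cases and fell in 3, and their summed level was 86.0 to 94.6 CPM against 29.3 to 43.7 CPM. Most of the neutrophil sum was Csf3r, at 76.5 against 25.2 CPM on average, while S100a8 and S100a9 did not pass the test. The lists of plasmacytoid dendritic cells, monocytes, marginal zone B cells, plasma cells, T cells and NK cells had 6 of 10, 3 of 7, 5 of 5, 5 of 7, 4 of 10 and 1 of 9 genes past the test, in both directions in every list but the last. The part of cell makeup in the results on the receptors and on the other genes was not tested.

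The 8 receptor genes span 1001.9 kb on mm10, at chr1:171588624-172590568, with 14 other genes of the table between the outermost members. The first 6 receptors stand close together, in the order Ly9, Slamf7, Cd48, Slamf1, Cd84 and Slamf6, over chr1:171588624-171953170. Slamf9 (chr1:172475358-172478575) and Slamf8 (chr1:172581758-172590568) lie apart from them, with 10 of the other genes between Slamf6 and Slamf9. Ly9, Slamf7 and Slamf8 are on the minus strand and the others are on the plus strand. Ly9 overlaps Cd244a on the opposite strand, and Cd48 and Slamf6 each overlap a predicted gene, in each case with 0 shared exon bases. Slamf7 shares 423 exon bases with other annotated genes. Whether counting used the strand was not stated, so reads in overlapping parts are uncertain.

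Promoter sequences are shown for the 3 receptors with the lowest, the second lowest and the highest log2 fold change past the test. They are the 250 bases before the RefSeq start of each gene on the plus strand of GRCm38.p6. Cd84 (chr1:171839447-171839696) had the largest difference of the family, Slamf6 (chr1:171917212-171917461) was the member that was higher in B6.SLE123 mice, and Slamf9 (chr1:172475110-172475359) had the next largest fall after Cd84. Capitals in Slamf9 mark the core of the motif for PU.1, a transcription factor of macrophages and dendritic cells.
Cd84: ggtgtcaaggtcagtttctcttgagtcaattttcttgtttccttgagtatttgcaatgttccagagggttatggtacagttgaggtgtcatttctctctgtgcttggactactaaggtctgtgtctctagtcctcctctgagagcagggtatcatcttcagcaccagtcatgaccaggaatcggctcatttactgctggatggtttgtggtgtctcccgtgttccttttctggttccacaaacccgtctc
Slamf6: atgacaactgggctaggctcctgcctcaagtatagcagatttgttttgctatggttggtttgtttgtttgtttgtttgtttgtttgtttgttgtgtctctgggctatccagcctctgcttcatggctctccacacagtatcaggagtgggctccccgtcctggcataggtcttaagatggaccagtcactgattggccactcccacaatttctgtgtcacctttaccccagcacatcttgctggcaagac
Slamf9: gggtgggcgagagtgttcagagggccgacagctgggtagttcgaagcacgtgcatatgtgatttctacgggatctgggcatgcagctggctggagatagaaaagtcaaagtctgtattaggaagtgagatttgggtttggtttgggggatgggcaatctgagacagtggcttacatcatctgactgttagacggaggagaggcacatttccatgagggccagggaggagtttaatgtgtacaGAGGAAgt

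RefSeq promoters were matched for 7 of the 8 receptors, all but Ly9. The PU.1 core, GAGGAA on either strand, was in 1 of these 7, and in 23.3% of all 32851 promoters of the same length. In Slamf9 it stood on the plus strand with its first base 8 bases before the start. A composite motif of ETS and IRF factors, GGAA followed by GAAA after any 2 bases, was in 0 of 7 receptor promoters and in 2.3% of all promoters, and its first 4 letters can overlap the PU.1 core. The pair of GAAA repeats known from interferon-responsive genes, with any 2 bases between them, was in 1 of 7, that of Slamf8, and in 2.98% of all promoters. These are matches of letters in the reference genome. The sequences of the B6.SLE123 alleles were not analysed here.

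The question put to the family was which receptors differed between the strains in CD11c-positive cells before overt disease. Of the 8 receptors, 5 were lower and 1 was higher in B6.SLE123 mice in edgeR's quasi-likelihood test. Cd84, Slamf9, Slamf8, Cd48 and Slamf7 were lower, Slamf6 was higher, and Ly9 and Slamf1 did not pass the test. Among all 13786 genes, 53.4% passed, 26.6% as lower and 26.7% as higher. The strains therefore differed in a large share of all genes, and the 6 of 8 receptors stand against that background. The median log2 fold change of the receptors was -0.24, and that of all genes was -0.002. Summed over the 8 receptors, the level was 935 to 1010 CPM in C57BL/6 mice and 783 to 837 CPM in B6.SLE123 mice.

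**Figure D1:**
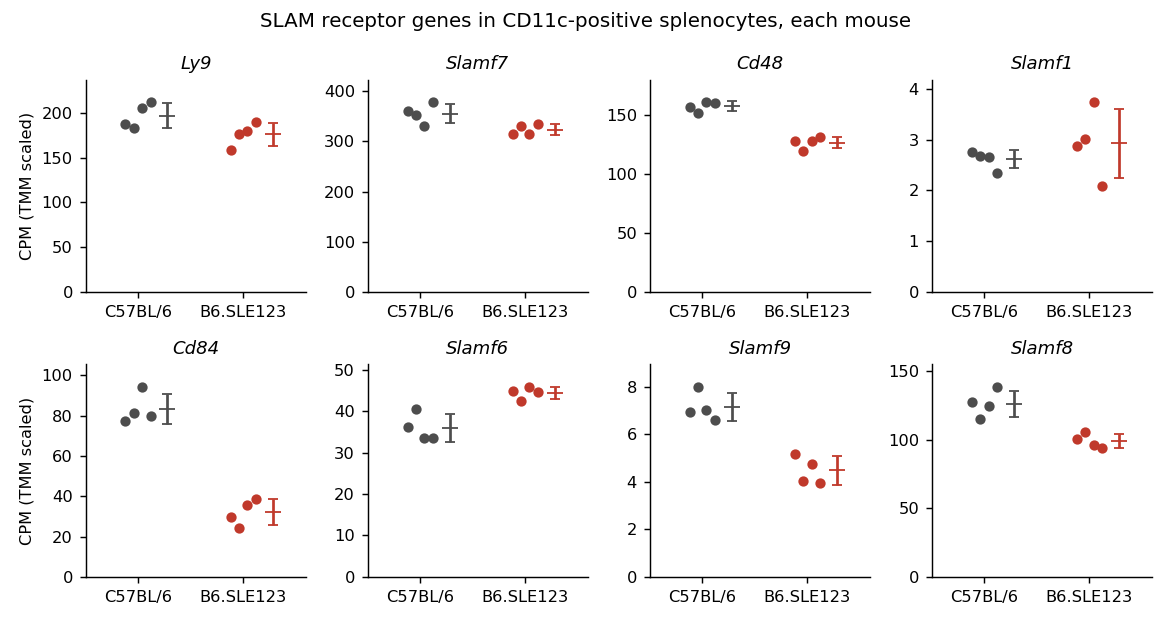
CPM of each SLAM receptor gene in each mouse, on linear axes that start at 0, with C57BL/6 mice in gray, B6.SLE123 mice in red and the mean ± SD of 4 mice beside the points. The points of the strains are apart for Cd48, Cd84, Slamf6, Slamf9 and Slamf8, with Slamf6 the 1 of these in which the B6.SLE123 mice are above.

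Cd84 encodes a self-binding receptor of B cells, T cells, platelets and phagocytes that helps T cells and B cells to stay in contact. Its level was 77.3, 81.1, 94.0 and 79.9 CPM in the 4 C57BL/6 mice and 29.5, 24.2, 35.7 and 38.7 CPM in the 4 B6.SLE123 mice. The highest B6.SLE123 mouse was below the lowest C57BL/6 mouse by a wide margin. The means were 83.1 ± 7.49 CPM and 32.0 ± 6.46 CPM (SD, n = 4 each), so Cd84 was 2.6-fold lower in B6.SLE123 mice. The log2 fold change was -1.38 (SE 0.13, 95% interval -1.66 to -1.10, edgeR adjusted p = 6.08e-06). It was the only receptor of the 8 with a difference of more than 2-fold, a size and direction that 8.29% of all genes showed.

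The red pulp macrophage genes fell with Cd84. Their summed level was 13348, 12069, 15291 and 13238 CPM in the C57BL/6 mice and 2233, 1700, 2959 and 3389 CPM in the B6.SLE123 mice, in the same mouse order as the Cd84 values above. Within B6.SLE123 the mice had the same order in both measures, from replicate 2 as the lowest to replicate 4 as the highest. Within C57BL/6, replicate 3 was highest in both, and the order of the other 3 differed between the measures. In B6.SLE123 mice the summed level of type 1 dendritic cell genes was 3404, 3864, 3032 and 2426 CPM, the exact reverse of the order of Cd84. Of the other receptors that were lower, Cd48 had the order of Cd84 in these mice, Slamf8 had its exact reverse, and Slamf9 and Slamf7 had neither. With 4 mice such orders can match by chance. The part of either cell type in the Cd84 result was not tested.

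**Figure D2:**
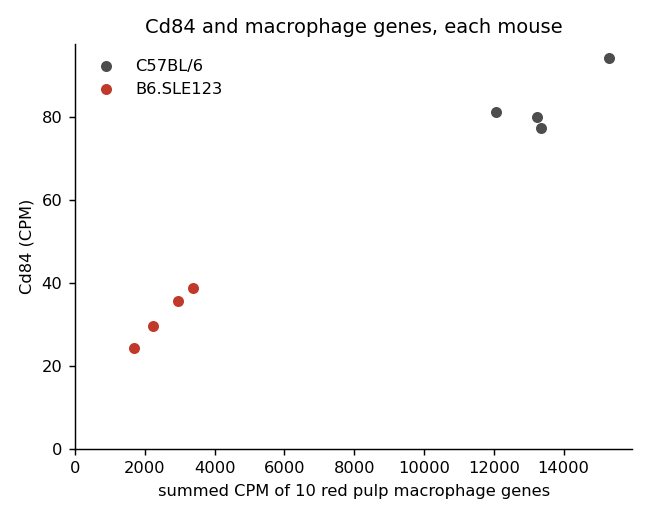
Cd84 in CPM against the summed CPM of 10 red pulp macrophage genes, 1 point per mouse, with C57BL/6 in gray and B6.SLE123 in red and both axes starting at 0. The 2 strains form separate clusters, with the B6.SLE123 mice at 24.2 to 38.7 CPM of Cd84 and 1700 to 3389 CPM of macrophage genes.

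Cd48 encodes the widely expressed ligand of Cd244a. It stood at 157, 152, 160 and 160 CPM in C57BL/6 mice and at 127, 120, 128 and 131 CPM in B6.SLE123 mice. Each strain was tight, and the strains did not overlap. The means were 157 ± 4.16 CPM and 126 ± 4.92 CPM (SD, n = 4), a log2 fold change of -0.32 (SE 0.04, edgeR adjusted p = 9.54e-05), with a 95% interval of -0.41 to -0.22.

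Slamf8 and Slamf9, the short-tailed receptors of myeloid cells, were both lower. Slamf8, which is known to restrain the production of reactive oxygen by phagocytes, was at 127, 115, 125 and 138 CPM in C57BL/6 mice and at 101, 105, 96.5 and 93.7 CPM in B6.SLE123 mice. Slamf9 was much less abundant, at 6.92, 7.98, 7.05 and 6.62 CPM against 5.19, 4.03, 4.76 and 3.94 CPM. For neither gene did any B6.SLE123 mouse reach the lowest C57BL/6 mouse. The log2 fold change was -0.35 for Slamf8 (SE 0.06, edgeR adjusted p = 0.000517). It was -0.67 for Slamf9 (SE 0.12, edgeR adjusted p = 0.00062), which fell from 7.14 ± 0.589 to 4.48 ± 0.60 CPM.

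Slamf6 (Ly108), a self-binding receptor of T cells, B cells and natural killer cells whose splice forms are known to differ between lupus-prone and C57BL/6 mice, was the member with the opposite direction. It was at 36.1, 40.5, 33.5 and 33.5 CPM in C57BL/6 mice and at 44.8, 42.4, 45.8 and 44.5 CPM in B6.SLE123 mice. All B6.SLE123 mice were above all C57BL/6 mice, although C57BL/6 replicate 2 came close. The means were 35.9 ± 3.28 and 44.4 ± 1.41 CPM (SD, n = 4), a log2 fold change of 0.31 (SE 0.06, edgeR adjusted p = 0.00194). The counts are summed per gene and do not tell the splice forms apart. The summed levels of T cell genes were 302 to 347 CPM against 323 to 430 CPM, of NK cell genes 111 to 143 CPM against 112 to 127 CPM and of B cell genes 767 to 865 CPM against 664 to 787 CPM, and the summed dendritic cell genes were higher in every B6.SLE123 mouse than in any C57BL/6 mouse. Most of the T cell sum was Cd4 (258 against 296 CPM on average). Of the 10 T cell genes, 7 had negative log2 fold changes, with a list median of -0.20. Past the test, 2 T cell genes were lower and 2, Cd5 and Il7r, were higher, while Cd3e, Cd3d and Cd3g did not pass.

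Slamf7 and Ly9 lay near the threshold. Slamf7, a self-binding receptor that is best known as an antibody target on malignant plasma cells, was at 361, 353, 330 and 377 CPM in C57BL/6 mice and at 314, 331, 314 and 334 CPM in B6.SLE123 mice. Ly9 (CD229), a self-binding receptor of T cells and B cells, was at 187, 183, 205 and 211 CPM against 159, 176, 180 and 189 CPM. The strains overlapped in both genes, in Ly9 through B6.SLE123 replicate 4. The log2 fold change of Slamf7 was -0.14 (SE 0.05, edgeR adjusted p = 0.0333), and that call was lost when any of C57BL/6 replicates 1, 2 and 4 or B6.SLE123 replicates 1 and 3 was left out, with adjusted p values of up to 0.0819. For Ly9 the log2 fold change was -0.16 (SE 0.06, 95% interval -0.30 to -0.02, edgeR adjusted p = 0.0504). Other tools put Ly9 on the other side of the threshold, with an adjusted p of 0.0431 by DESeq2 and 0.0491 by limma-voom.

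Slamf1 (CD150), the receptor that gave the family its name and a sensor of bacteria on phagocytes, was barely expressed. Its level was 2.76, 2.69, 2.65 and 2.35 CPM in C57BL/6 mice and 2.88, 3.01, 3.73 and 2.09 CPM in B6.SLE123 mice. The B6.SLE123 mice enclosed the whole C57BL/6 range. These values rest on 53 to 126 counts per mouse, and the log2 fold change of 0.17 (SE 0.17, edgeR adjusted p = 0.417) has a 95% interval of -0.21 to 0.55, which leaves room for a difference in either direction.

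In all, 5 of the 8 receptors had strains that did not overlap, where 48.9% of all genes did. For each of the 5, an exact two-sided permutation test of 4 mice against 4 gave 0.0286, the smallest p that this design allows. That value follows from the lack of overlap and adds nothing to it. The same test gave 0.0857 for Ly9, 0.0857 for Slamf7 and 0.486 for Slamf1.

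Per length of transcript, counted as CPM per kb of merged GENCODE exons, Cd48 was the most abundant receptor, at 132 in C57BL/6 mice and 106 in B6.SLE123 mice. Slamf7 followed with 77.6 and 70.6, then Ly9 with 59.5 and 53.2 and Slamf8 with 41.0 and 32.2. Next came Cd84 in both strains, with 13.2 and 5.11. Slamf9 stood at 5.44 and 3.41, Slamf6 at 3.31 and 4.10 and Slamf1 at 0.424 and 0.475 CPM per kb. In C57BL/6 mice no neighbors in this order overlapped over the mice. In B6.SLE123 mice the ranges of Cd84, Slamf6 and Slamf9 overlapped between mice. Within each of the 4 mice Slamf9 was below both others, while Slamf6 was above Cd84 in replicate 2 and below it in the other 3, so the order of Cd84 and Slamf6 was not resolved. Cd84 made up 3.67 to 4.50% of the summed level per kb of the family in C57BL/6 mice and 1.42 to 2.17% in B6.SLE123 mice. Merged exons count all annotated transcripts, so a gene with long minor transcripts gets a low level per kb, and Slamf6 has the longest merged exons of the family, with 10832 bases.

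The receptors did not move by a common factor, since Cd84 was lower and Slamf6 higher past the test. When each receptor was compared with Cd48 of the same mouse, the log2 ratio of Cd84 to Cd48 was -0.92 ± 0.12 in C57BL/6 mice and -2.0 ± 0.25 in B6.SLE123 mice (SD, n = 4), a difference of -1.08. The ratio of Slamf9 differed by -0.36, that of Slamf6 by 0.62 and that of Slamf7 by 0.18. For these 4 receptors the strains did not overlap, and the exact permutation p was 0.0286 each, or 0.05 after Benjamini-Hochberg adjustment over the 7 ratios, which is not below the threshold. The ratio of Ly9 differed by 0.15 (exact permutation p = 0.0857, adjusted 0.12) and that of Slamf1 by 0.45 (exact permutation p = 0.114, adjusted 0.133). Slamf8 and Cd48 had the most similar change, with a ratio of -0.32 ± 0.08 in C57BL/6 mice and -0.35 ± 0.13 in B6.SLE123 mice (difference -0.03, exact permutation p = 0.657, adjusted 0.657).

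**Figure D3:**
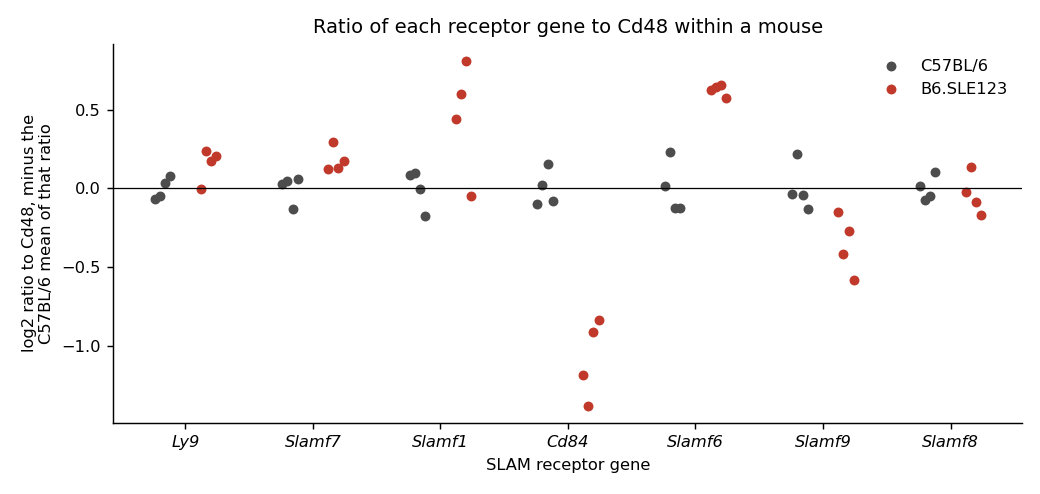
Log2 ratio of each receptor gene to Cd48 in the same mouse, minus the mean of that ratio in C57BL/6 mice, with 4 C57BL/6 mice in gray and 4 B6.SLE123 mice in red for each gene. The B6.SLE123 mice lie apart from the C57BL/6 mice above the line for Slamf6 and Slamf7 and below it for Cd84 and Slamf9, and among the C57BL/6 mice for Slamf8.

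Of the 5 partners and adaptors of the family, Cd244a, Cd2 and Sh2d1b1 passed the test as lower in the B6.SLE123 strain, as 26.6% of all genes did, and Sh2d1a did not pass. The fifth, Sh2d1b2, was in the table only through its counts in B6.SLE123 mice and is described without a test. Cd244a (2B4), the receptor for Cd48, was at 223, 220, 205 and 218 CPM in C57BL/6 mice and at 160, 189, 202 and 202 CPM in B6.SLE123 mice. The gap between the strains was narrow. Its log2 fold change was -0.20 (SE 0.07, edgeR adjusted p = 0.032), and the call was lost in 3 of 8 fits that each left out 1 mouse, those without C57BL/6 replicate 1, 2 or 4 (adjusted p = 0.0537 to 0.078). Cd2, an adhesion receptor of T cells and NK cells that also binds Cd48, fell from 11.9 ± 1.39 to 8.96 ± 1.41 CPM (log2 fold change -0.41, SE 0.12, edgeR adjusted p = 0.0152), and this call was lost without C57BL/6 replicate 3 (adjusted p = 0.0517).

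Among the adaptors, Sh2d1a (SAP), which belongs chiefly to T cells and NK cells, was close to absent with 10 to 22 counts per mouse, at 0.653 ± 0.185 CPM and 0.408 ± 0.106 CPM (edgeR adjusted p = 0.0842), and it overlaps Tenm1 on the other strand. Sh2d1b1 (EAT-2), the adaptor of NK cells and antigen-presenting cells, was at 65.5, 72.4, 70.3 and 66.7 CPM in C57BL/6 mice and at 49.3, 59.6, 55.7 and 64.7 CPM in B6.SLE123 mice. All B6.SLE123 mice were below all C57BL/6 mice, the highest by a small margin. The log2 fold change was -0.26 (SE 0.07, edgeR adjusted p = 0.0121).

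Its close copy Sh2d1b2 had the opposite direction. Sh2d1b2 had 2, 0, 2 and 0 counts in the C57BL/6 mice and 55, 89, 82 and 83 counts in the B6.SLE123 mice. It was all but undetected in one strain and low but present in every mouse of the other, at 2.46 ± 0.626 CPM (SD, n = 4). The table holds genes whose larger strain median is at least 5 counts, a minimum that Sh2d1b2 met only in the B6.SLE123 strain, so a gene like it had to differ in order to be listed. The totals of 4 and 309 counts give a ratio of 69.5 after correction for depth. Its 95% exact interval of 26.9 to 257 pools the mice of each strain. It covers counting error only, not the spread between mice, and is no test of the strains. Sh2d1b1 (chr1:170277320-170286769) and Sh2d1b2 (chr1:170232749-170253608) lie near each other, 1.30 Mb and 1.34 Mb before Ly9. Reads of near-identical copies can be split between them by alignment, so both values are uncertain, and their sum was 68.7 ± 3.18 CPM in C57BL/6 mice and 59.8 ± 7.07 CPM in B6.SLE123 mice.

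Further inside the cell, SLAM adaptors lead to kinases of the Src family, phosphatases, phospholipase C, NFAT factors and the Beclin 1 complex of autophagy. Of 16 such effectors, 12 passed the test, 7 as higher and 5 as lower, beside 53.4%, 26.7% and 26.6% of all genes, and the median log2 fold change was 0.04. The list did not move in one direction. Plcg1, a phospholipase that raises calcium, had the largest rise at 0.39 (SE 0.06, edgeR adjusted p = 0.000426), followed by Uvrag, a partner of Beclin 1, at 0.38 (SE 0.05, edgeR adjusted p = 9.16e-05). The largest falls were those of Lck, a Src kinase of T cells, at -0.37 (SE 0.11, edgeR adjusted p = 0.0159) and of Pik3r4, a subunit of the lipid kinase in the Beclin 1 complex, at -0.25 (SE 0.05, edgeR adjusted p = 0.00106). No effector moved as far as Cd84 or Slamf9, and Plcg1, Uvrag, Lck and Pik3r4 each overlap another annotated gene. In 5 of 8 fits without 1 mouse, 3 effectors passed as lower in place of 5, those without C57BL/6 replicate 3 or 4 or B6.SLE123 replicate 1, 2 or 3.

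**Figure D4:**
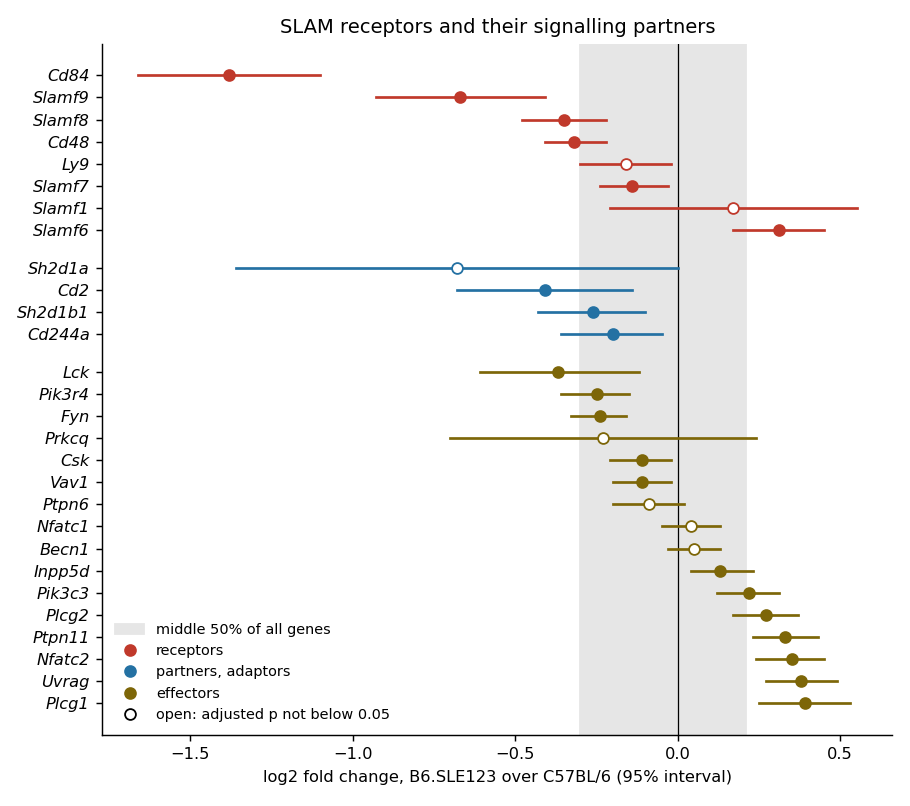
Log2 fold change with 95% interval of the 8 SLAM receptors in red, 4 of the 5 partners and adaptors in blue and the 16 effectors in brown, with filled circles for an edgeR adjusted p below 0.05 and a gray band for the middle 50% of all genes (-0.30 to 0.21). Sh2d1b2 is left out because its C57BL/6 mice had 4 counts in all; Cd84 at -1.38 is farthest from 0.

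The genes that lie among the receptors were set beside them, since they share the same stretch of the chromosome. Of the 14, 9 passed the test, 3 as higher and 6 as lower, and the median log2 fold change was -0.09. That is 64.3%, near the 53.4% of all genes that passed. A difference of more than 2-fold past the test was found in 4 of the 14, and in 1524 of all 13786 genes. All 4 were lower, as were 1143 of the 1524. The largest falls were in potassium channel genes between Slamf6 and Slamf9. Kcnj9 was at 30.0, 25.6, 37.4 and 31.7 CPM in C57BL/6 mice and at 1.74, 1.64, 3.99 and 2.99 CPM in B6.SLE123 mice. Kcnj10 was at 301, 277, 347 and 280 CPM against 46.9, 40.7, 67.0 and 74.6 CPM. In neither gene did any B6.SLE123 mouse come near the C57BL/6 mice, and the log2 fold change was -3.60 for Kcnj9 (SE 0.23, edgeR adjusted p = 6.78e-07) and -2.40 for Kcnj10 (SE 0.17, edgeR adjusted p = 1.31e-06). Among B6.SLE123 mice Kcnj10 followed the order of the summed red pulp macrophage genes given beside Cd84. Kcnj9 did not, with its highest value in replicate 3. C57BL/6 replicate 3 was highest in Kcnj9, Kcnj10 and the macrophage sum. The part of macrophages in these results was not tested. Kcnj9 overlaps the predicted gene Gm36937 on the other strand.

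The other 2 were named after their values were seen. Igsf8, which encodes an immunoglobulin-like protein that binds tetraspanins, had a log2 fold change of -1.63 (SE 0.10, edgeR adjusted p = 6.74e-07). Gm10521, a predicted gene 4.9 kb beyond the end of Cd84 on the same strand, fell from 6.89 ± 1.14 to 1.69 ± 0.145 CPM (log2 fold change -2.02, SE 0.15, edgeR adjusted p = 1.56e-06). The neighbor of Gm10521 on its other side is Slamf6, the receptor that was higher. The largest rises were in Cfap45, a gene of cilia, at 0.63 (SE 0.14, edgeR adjusted p = 0.0025), and in Pea15a, a regulator of cell death and ERK signaling, at 0.46 (SE 0.05, edgeR adjusted p = 1.72e-05), which overlaps Dcaf8. Genes of both directions thus stood next to one another along the cluster.

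**Figure D5:**
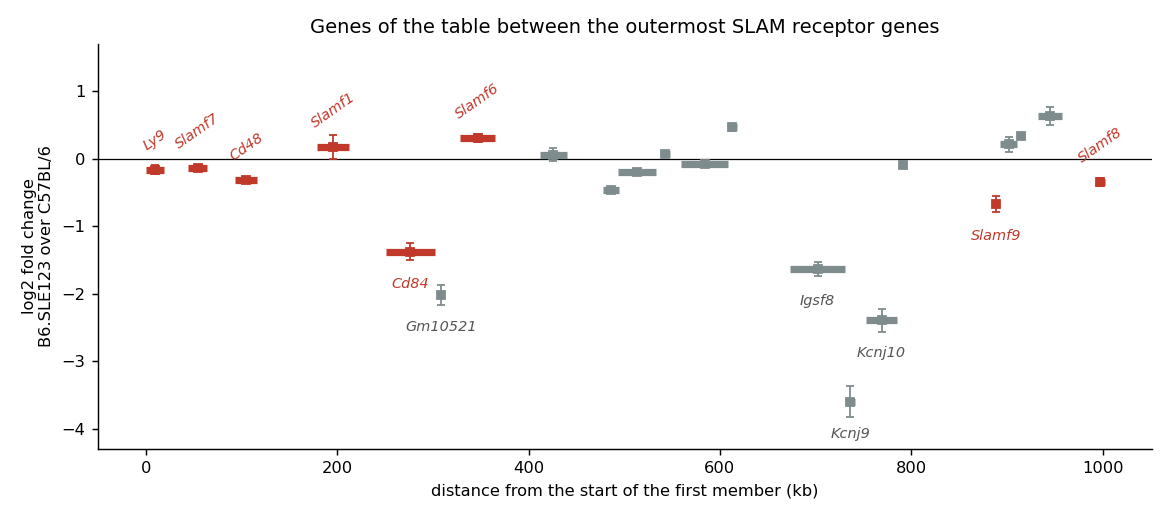
Log2 fold change ± SE of the 22 genes of the table from Ly9 to Slamf8, against the distance in kb from the start of the first member, with receptors in red, other genes in gray and thick lines for the length of each gene. Cd84 at -1.38, Gm10521 at -2.02, Igsf8 at -1.63, Kcnj10 at -2.40 and Kcnj9 at -3.60 lie below -1, and the other genes lie between -0.67 and 0.63.

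For each receptor, the 2 genes outside the family with the highest Pearson r of log2 CPM over the 8 mice were named. The 8 points share 2 strains, so a high r can come from the strain difference alone, and the values are descriptions. The genes nearest to Cd84 were B3galnt1 (r = 0.999) and Blvrb, an enzyme of heme breakdown (r = 0.998), with log2 fold changes of -1.81 and -1.67. Those nearest to Cd48 were Bscl2 and Vstm4 (r = 0.998 each), at -0.35 and -2.75, and those nearest to Slamf6 were Klf12 (r = 0.993) and Ccdc88a (r = 0.984), at 0.67 and 0.21. Cd84 and its nearest genes were of similar fold change, whereas Cd48 and Vstm4 were not. Xkr8 (r = 0.988) and Rab38 (r = 0.987) were nearest to Slamf9, Col7a1 (r = 0.983) and Tbkbp1 (r = 0.979) to Slamf8, Tspan31 (r = 0.98) and Dnajc7 (r = 0.977) to Ly9, Zfp647 (r = 0.972) and Hhex (r = 0.969) to Slamf7, and Tarbp1 (r = 0.933) and Pcx (r = 0.926) to Slamf1. None of these 16 genes lies on chromosome 1.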

How the data were processed

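RNA was prepared from CD11c-positive splenocytes of 4 C57BL/6 and 4 B6.SLE123 mice and sequenced. According to their methods, the authors used FastQC for quality control, cutadapt for trimming, STAR for alignment to mm10 and featureCounts for counts per gene. Versions were not given in the sources used here. The deposited table holds raw counts of 13786 protein-coding genes, in which the larger strain median was at least 5, beside the fold changes and p-values of the authors' DESeq2 comparison, which were not used. Reads of both strains were aligned to the C57BL/6J reference, and the effect of sequence differences in the introgressed intervals on the counts was not tested. The genotype field of the sample labels runs through a series of strain numbers, so strain was taken from sample titles.

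Counts were scaled by TMM and compared with edgeR 4.0.16 in R 4.3.3 (quasi-likelihood test, no filter, Benjamini-Hochberg adjustment over 13786 genes, threshold 0.05). Log2 CPM values used a prior count of 2. Depth was 25563070 to 37367094 counts per mouse. The labels do not say that mice were from separate litters or cages, and p-values measure the spread between these samples. Exon lengths came from GENCODE release 21 of the mouse annotation, whose gene coordinates matched those of the table for 13663 genes. Ratios within a mouse were tested between strains by exact permutation (two-sided). The analysis was tested on simulated data. Alternatives were relative log expression factors, a minimum of 10 counts in every sample, DESeq2 1.42.0, limma-voom (limma 3.58.1), the replicate number as a block, a prior count of 0.5, an adjusted p below 0.01 and fits without 1 mouse at a time.

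The members and all gene lists (receptors, partners and adaptors, effectors and 14 cell type lists) were chosen with earlier results of these data known. Named were all receptors, partners and adaptors, the 2 largest rises and 2 largest falls of the effectors and of the genes among the receptors, and the 2 genes most like each receptor over the mice. Outside this rule, Igsf8, Gm10521, Vangl2 and the cell type genes other than Itgax were named after their values were seen.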

Additional observations from a re-analysis of the deposited data

Results flagged for a closer look

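Of 68 groups of 4 mice examined, 1 held a mouse far from the other 3, where chance alone would give 3.4. In B6.SLE123 replicate 3 the mean of the neutrophil list was 0.09 on the log2 CPM scale, against 1.23 to 1.35 in the other B6.SLE123 mice. No receptor, partner or adaptor had such a mouse.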

How the results depend on the processing

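Of 428 values of the comparisons, 409 were unaltered by the alternatives, meaning the same side of 0 and of the threshold for a tested value, a move of under 1 SD for an untested one and a change of at most 1.5 times for a count. The same held for 616 of 649 values of single genes and marker lists. Ly9 (adjusted p = 0.0504) passed the threshold with genes of at least 10 counts in every sample (log2 fold change -0.17, adjusted p = 0.0373), in DESeq2 (-0.16, 0.0431), in limma-voom (-0.16, 0.0491) and with the replicate number as a block (-0.16, 0.0151). Whether the numbers pair the mice was not settled. Deviations of same-numbered mice correlated at -0.02 to 0.16, and 2 of 4 numbers correlated best with themselves. With 1 mouse left out, Ly9 ranged from -0.21 to -0.12 and passed in 2 of 8 fits, those without C57BL/6 replicate 2 or B6.SLE123 replicate 4 (adjusted p = 0.0208 to 0.125 over the 8), and Slamf7 ranged from -0.17 to -0.12 (0.0134 to 0.0819). Between 5 and 7 receptors passed over these fits, 3 to 4 effectors passed as lower in place of 5, and the difference in the ratio of Slamf8 to Cd48 ranged from -0.09 to 0.01, being 0.00 without C57BL/6 replicate 4 and 0.01 without B6.SLE123 replicate 4. Cd84 stayed between -1.49 and -1.27. With at least 10 counts in every sample, Sh2d1b2, which is described without a test, was left out, and 0 partners or adaptors were higher. Vangl2 (0.06) ranged from -0.00 without C57BL/6 replicate 3 to 0.12. The median of the plasmacytoid dendritic cell list ranged from -0.06 to 0.01 and was positive without C57BL/6 replicate 2 or B6.SLE123 replicate 2, that of the monocyte list from -0.27 to 0.01 (positive without B6.SLE123 replicate 2) and that of the neutrophil list from -0.42 to 0.02 (positive without B6.SLE123 replicate 3). The cause of these shifts was not tested. The all-gene median (log2) lay between -0.011 and 0.0 under every scaling and with any mouse left out. Depth limits Slamf1 and Sh2d1a, which rest on 53 to 126 and 10 to 22 counts per mouse.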
